A study of Homo sapiens with 8 samples.

Results

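Chromatin accessibility was described at 10 genes of the late steps of nucleotide excision repair: XPA, the 3 subunits of replication protein A (RPA1, RPA2 and RPA3), the nuclease genes ERCC1, ERCC4 (XPF) and ERCC5 (XPG), and the sealing genes LIG1, LIG3 and XRCC1. They were taken from 19970 protein-coding genes of GENCODE release 44 on hg38 by their role. No measured value set the choice, but earlier results of these data were known when it was made. Every region of open chromatin that touched a gene's span or the 5 kb on either side of it was counted as belonging to that gene. ATAC-seq, in which the Tn5 transposase cuts and tags accessible DNA, had been run on U2OS cells, a human osteosarcoma line, in 4 groups of 2 labelled biological replicates. The groups were wild-type (WT) cells without UV, WT cells 3 h after UV light at 20 J/m2, and ASH1L-/- cells without UV and 3 h after the same dose. ASH1L encodes a histone methyltransferase, and the ASH1L-/- line had been isolated as colonies after CRISPR/Cas9 editing, so a difference of genotype cannot be told apart from one of the isolated line. The 8 libraries gave 1 region list each.

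In nucleotide excision repair a bulky lesion such as a UV photoproduct is found, the DNA around it is unwound by TFIIH, and a short stretch of the damaged strand is cut out. XPA helps to check the lesion and holds the complex together, while the RPA trimer covers the undamaged single strand. ERCC1 and ERCC4 form the nuclease that cuts on the 5′ side, and ERCC5 cuts on the 3′ side. After resynthesis the nick is sealed by LIG1 or by LIG3 with its scaffold XRCC1.

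The lists held 158198 to 220783 regions and the mean pileup of a library (overlapping fragments per base) was 1.39 to 5.87, highest in replicate 1 of the unchallenged ASH1L-/- cells. The ASH1L promoter was in all 8 lists, at percentiles from 81.1 to 97.6, which does not test the small deletions in its exons. Promoter regions of 8 mesenchymal markers were in all 8 lists for 5 genes, and COL1A2 was in 7, CDH11 in 4 and TWIST1 in 2. Of the markers of other lineages reported here, EPCAM was in all 8 lists, and PTPRC, CD3E, CDH1 and ALB were in none.

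RefSeq promoter sequences (GRCh38.p14, 250 bases before to 50 after the start) matched 8 of the 10 genes. RPA2 and RPA3 had no entry. Over 15315 protein-coding promoters of the same length the median GC content was 63.7%, and over the 8 genes it was 64.5%, with 77.7% at RPA1 the highest. Both strands were searched for 8 short motifs. The ETS motif CCGGAAG lay in the promoters of ERCC1, ERCC4 and ERCC5, the 3 nuclease genes, and in none of the other 5, against 14.7% of all promoters. In all 3 it lay across or directly after the start, beginning at -2 in ERCC1 and ERCC4 and at 1 on the opposite strand in ERCC5, where 1 is the first transcribed base. These 3 are shown with the promoters of highest and lowest rank that had an entry besides them, LIG1 and RPA1. Capitals mark every match to one of the motifs, and each sequence reads 5′ to 3′ on the gene's own strand.
ERCC1, chr19:45423868-45424167, minus strand: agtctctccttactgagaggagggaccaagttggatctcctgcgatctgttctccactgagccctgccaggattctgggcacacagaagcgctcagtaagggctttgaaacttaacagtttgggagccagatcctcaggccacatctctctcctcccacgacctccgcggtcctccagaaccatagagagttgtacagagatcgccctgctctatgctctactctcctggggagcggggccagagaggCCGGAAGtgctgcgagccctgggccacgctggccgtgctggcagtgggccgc
ERCC4, chr16:13919904-13920203, plus strand: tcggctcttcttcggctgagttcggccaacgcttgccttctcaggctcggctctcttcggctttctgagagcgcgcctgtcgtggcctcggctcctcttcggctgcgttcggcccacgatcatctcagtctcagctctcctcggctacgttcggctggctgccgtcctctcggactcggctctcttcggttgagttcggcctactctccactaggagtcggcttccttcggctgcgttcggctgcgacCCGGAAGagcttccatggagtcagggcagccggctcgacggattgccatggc
ERCC5, chr13:102845782-102846081, plus strand: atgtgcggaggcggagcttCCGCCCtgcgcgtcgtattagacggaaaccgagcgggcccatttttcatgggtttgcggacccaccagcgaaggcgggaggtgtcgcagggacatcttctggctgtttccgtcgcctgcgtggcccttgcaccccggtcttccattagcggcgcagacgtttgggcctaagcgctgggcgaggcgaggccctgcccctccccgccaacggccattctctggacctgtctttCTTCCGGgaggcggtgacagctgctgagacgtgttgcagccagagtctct
LIG1, chr19:48170295-48170594, minus strand: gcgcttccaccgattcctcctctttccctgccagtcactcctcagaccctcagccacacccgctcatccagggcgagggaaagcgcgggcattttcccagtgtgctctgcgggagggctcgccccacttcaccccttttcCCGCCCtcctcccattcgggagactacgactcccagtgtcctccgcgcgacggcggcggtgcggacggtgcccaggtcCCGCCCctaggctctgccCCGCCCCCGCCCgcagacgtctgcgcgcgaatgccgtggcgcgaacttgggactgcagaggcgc
RPA1, chr17:1829755-1830054, plus strand: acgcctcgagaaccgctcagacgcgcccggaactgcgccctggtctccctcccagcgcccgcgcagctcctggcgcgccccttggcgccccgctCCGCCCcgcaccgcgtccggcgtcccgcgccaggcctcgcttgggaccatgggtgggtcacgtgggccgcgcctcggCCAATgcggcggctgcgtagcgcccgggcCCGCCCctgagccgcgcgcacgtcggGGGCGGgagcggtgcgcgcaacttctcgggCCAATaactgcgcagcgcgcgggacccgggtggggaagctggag

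The GC box GGGCGG (SP/KLF) was matched in 6 of the 8 promoters, XPA, ERCC5, RPA1, LIG1, LIG3 and XRCC1, against 61.8% of all. LIG1 held 4 of them and RPA1 held 3. GCGCNTGCG (NRF1) was matched in XPA, LIG3 and XRCC1, against 11.4% of all promoters. CCAAT (NFY) was matched in RPA1 and XRCC1, against 36.6%. TGACGTCA (CRE), TGANTCA (AP-1), AAGATGGCG (YY1) and TTTCGCGC (E2F) were in 0 of the 8 windows and in 2.76%, 5.5%, 2.98% and 0.816% of all promoters. A match describes the letters and is no evidence of binding.

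All 10 genes had a region within 1 kb of the canonical start in all 8 lists, which held for 59.1% of protein-coding genes. Each region was ranked by its fold enrichment, the summit pileup over a local background as the authors' peak caller gave it, and placed on a percentile scale within its list, where 100 is the most enriched region. The 10 promoters ran from the median of 99.7 for RPA2 to 70.9 for RPA1. Their median over the 10 genes was 88.6 to 95.7 in the single lists, against 82.7 to 92.2 for all 11802 promoters present in every list.

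Values of the 8 lists are given in a fixed order, replicates 1 and 2 of each group, with the WT groups first and no UV before UV. XPA stood at the percentiles 94.0, 92.6, 90.2, 79.0, 88.5, 87.2, 85.1 and 85.7. Its highest values were those of unchallenged WT cells and its lowest that of UV-treated WT replicate 2. Both UV values of the ASH1L-/- line lay below both of its unchallenged values, by less than the spread within the UV-treated WT pair.

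At their canonical starts the 3 RPA promoters were far apart in rank, although their products form 1 complex. RPA2 stood at 99.8, 99.9, 98.8, 99.2, 99.7, 99.9, 99.6 and 99.5. RPA3, the smallest subunit, stood at 74.0, 93.4, 88.7, 93.1, 90.0, 93.2, 86.2 and 88.1. RPA1, which carries most of the single-strand binding, stood at 59.2, 71.2, 70.9, 70.9, 86.1, 70.3, 80.5 and 67.9. RPA2 was thus among the top regions of every list, whereas RPA1 was among the 2 lowest of the 10 in every list. The RPA1 summit rested on 10 to 37 overlapping fragments, and the pileup of 10 in unchallenged WT replicate 1 had an exact Poisson interval (95%, counting error only) of 4.80 to 18.4. The RPA3 region had its summit at -973 to -769 bases from the canonical start and did not reach the narrower window of 0.5 kb. Most annotated RPA3 transcripts, 5 of 7, start instead near a site at the 3′ end of the gene (chr7:7640164-7641266), which stood at 97.8 to 99.8, so the low rank of RPA3 beside RPA2 holds for the canonical start.

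Of the nuclease genes, ERCC4 stood at 99.5, 99.9, 99.5, 99.0, 99.8, 99.8, 99.5 and 99.6. Its partner ERCC1 stood at 95.1, 90.8, 86.7, 75.6, 96.1, 94.6, 86.2 and 87.8. ERCC5 stood at 98.1, 99.1, 97.9, 98.6, 89.0, 93.7, 98.3 and 95.5. The ERCC1 values fell into a high unchallenged set and a low UV set that did not overlap, and the 2 lowest ERCC5 values were those of the unchallenged ASH1L-/- cells.

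Among the sealing genes, LIG1, the replicative ligase, stood at 99.6, 99.8, 99.5, 98.4, 99.2, 99.2, 99.7 and 99.4. LIG3 stood at 83.5, 74.7, 67.9, 69.3, 84.5, 87.9, 74.6 and 74.3. XRCC1, the scaffold of LIG3, stood at 96.2, 96.7, 93.8, 89.7, 96.1, 97.3, 90.9 and 92.9. LIG1 stayed between 98.4 and 99.8, and both LIG3 and XRCC1 had all 4 UV values below all 4 unchallenged values.

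Ordered by the median percentile the promoters were RPA2, ERCC4, LIG1, ERCC5, XRCC1, RPA3, ERCC1, XPA, LIG3 and RPA1. The ranges of RPA2, ERCC4 and LIG1 overlapped, as did those of RPA3, ERCC1 and XPA, and those of LIG3 and RPA1. These sets were not all apart. LIG3 (67.9 to 87.9) and RPA1 (59.2 to 86.1) both overlapped RPA3, ERCC1 and XPA. The range of ERCC5 (89.0 to 99.1) overlapped those of all other genes but LIG3 and RPA1. The order changed with the scale. When the summit pileup was divided by the mean pileup of its library, the medians ran from 122 at ERCC4, 94.3 at ERCC1 and 92.8 at RPA2 to 11.9 at LIG3 and 7.69 at RPA1. ERCC1 was seventh by percentile and second by pileup. Its fold enrichment was 9.75 to 11.9 and that of ERCC4 18.3 to 23.5, and the local background of the caller was higher at ERCC1, from 11.1 to 29.6 fragments, than at ERCC4 in every list, where it began at 7.27.

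**Figure D1:**
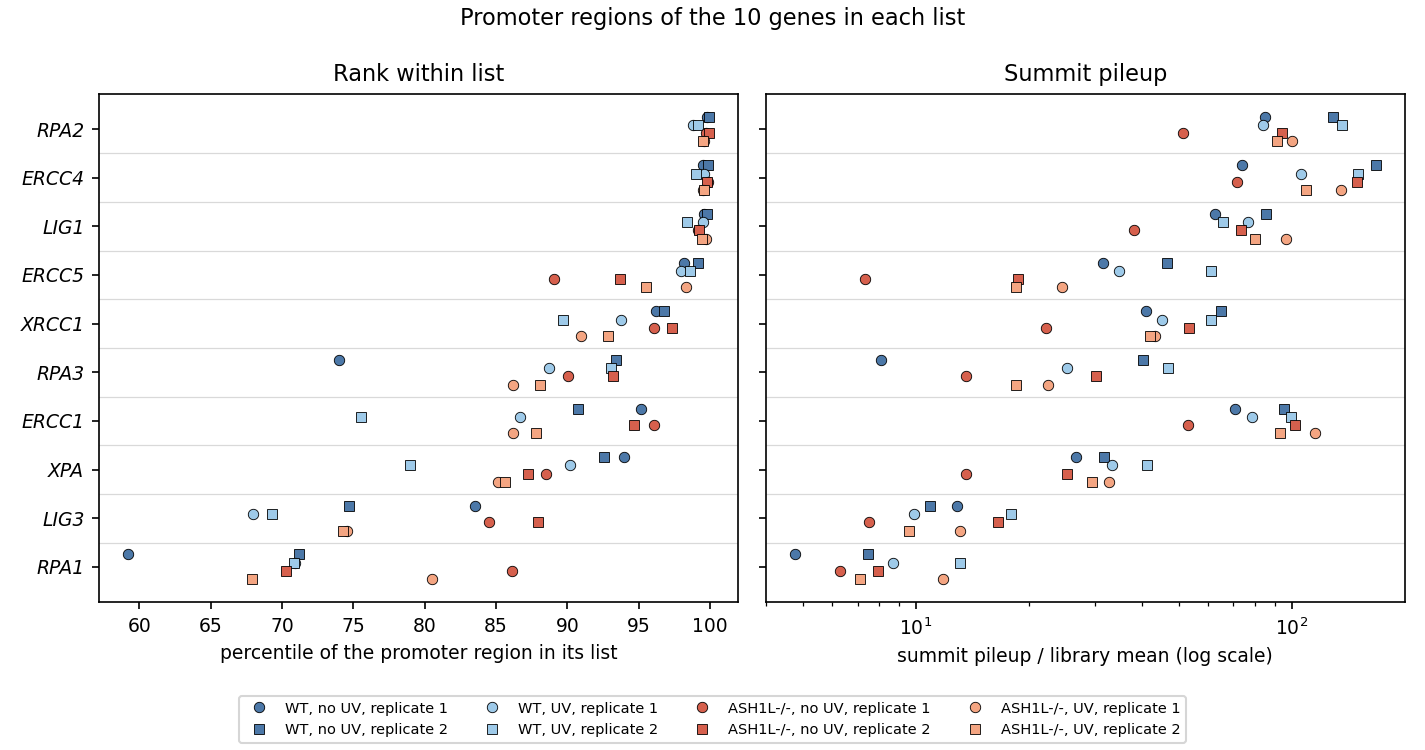
Percentile of the strongest promoter region within its list (left, 100 is the most enriched region) and its summit pileup over the library mean (right, log scale) for the 10 genes, with 1 point for each of the 8 lists, colored by group, circles for replicate 1 and squares for replicate 2. RPA2, ERCC4 and LIG1 sit above the percentile 98 in every list, RPA1 and LIG3 are lowest, and ERCC5 is the 1 gene whose ASH1L-/- pileups all lie below its WT pileups.

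UV was compared with no UV over both genotypes, 4 lists against 4. LIG3, ERCC1, XPA and XRCC1 had the most negative differences in percentile and ERCC5 the most positive, and none passed the test over all genes. The difference was -11.1 ± 3.73 points (SE, n = 4 and 4) for LIG3, from a mean of 82.7 to 71.5 (limma adjusted p = 0.119), and -10.1 ± 2.96 for ERCC1, from 94.2 to 84.1 (limma adjusted p = 0.108). XRCC1 differed by -4.78 ± 1.34 (limma adjusted p = 0.108), XPA by -5.60 ± 3.05 (limma adjusted p = 0.245) and ERCC5 by 2.60 ± 1.15 (limma adjusted p = 0.173). The ERCC5 rise was in ASH1L-/- cells alone, from a mean of 91.4 to 96.9, against 98.6 to 98.3 in WT cells. The differences of the other 5 genes lay between -0.58 and 1.34. limma called 0 of the 10 promoters and 0% of all 11802, and at an unadjusted p under 0.05 it held 4 of the 10, ERCC1, ERCC5, LIG3 and XRCC1, against 28.6% of all promoters.

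The 4 UV values lay below all 4 unchallenged values at ERCC1, RPA2, LIG3 and XRCC1, 4 of 10 genes against 21.1% of all promoters, each with the smallest p an exact permutation test can give here (0.0286, two-sided, unadjusted). At 0 of 10 genes did the UV values all lie above, against 1.06%. The median difference of all promoters was -2.85 points, with 79.7% below 0, and 7 of the 10 genes were below 0 with a median of -0.47. Relative to that shift LIG3 and ERCC1 differed by -8.29 and -7.24 points, and ERCC5 by 5.45. Without UV-treated WT replicate 1 limma called 3 of the 10 promoters, ERCC1 (-12.9 points, adjusted p = 0.0039), XRCC1 (-5.80, adjusted p = 0.0045) and XPA (-8.40, adjusted p = 0.0235), among 3951 of all promoters, with the remaining library of that group assumed to vary like the others. Without UV-treated WT replicate 2 the XPA difference was -2.80 points (limma adjusted p = 0.454), and without unchallenged ASH1L-/- replicate 1 that of ERCC5 was 1.43 points (limma adjusted p = 0.367). When ranks were taken among promoters alone, 1 of the 10, ERCC1, still had UV values entirely below.

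The direction depended on the scale. On the pileup over the library mean all 10 genes had a UV difference above 0, from 0.09 ± 0.38 on the log2 scale at LIG3 to 0.61 ± 0.38 at RPA1, and the median of all promoters was 0.45. Values did not overlap at 0 of 10 genes, against 11.8% of promoters higher and 0.0678% lower after UV. Relative to the median of all promoters the difference was -0.36 at LIG3, -0.28 at XRCC1, -0.24 at ERCC4, -0.20 at RPA2 and 0.16 at RPA1. The median pileup of all promoters was 25.2, 32.2, 15.2 and 28.1 times the library mean in the 4 unchallenged libraries and 29.6, 46.7, 32.7 and 31.3 times in the 4 UV libraries, WT first. The part of this library difference in the UV values was not tested.

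**Figure D2:**
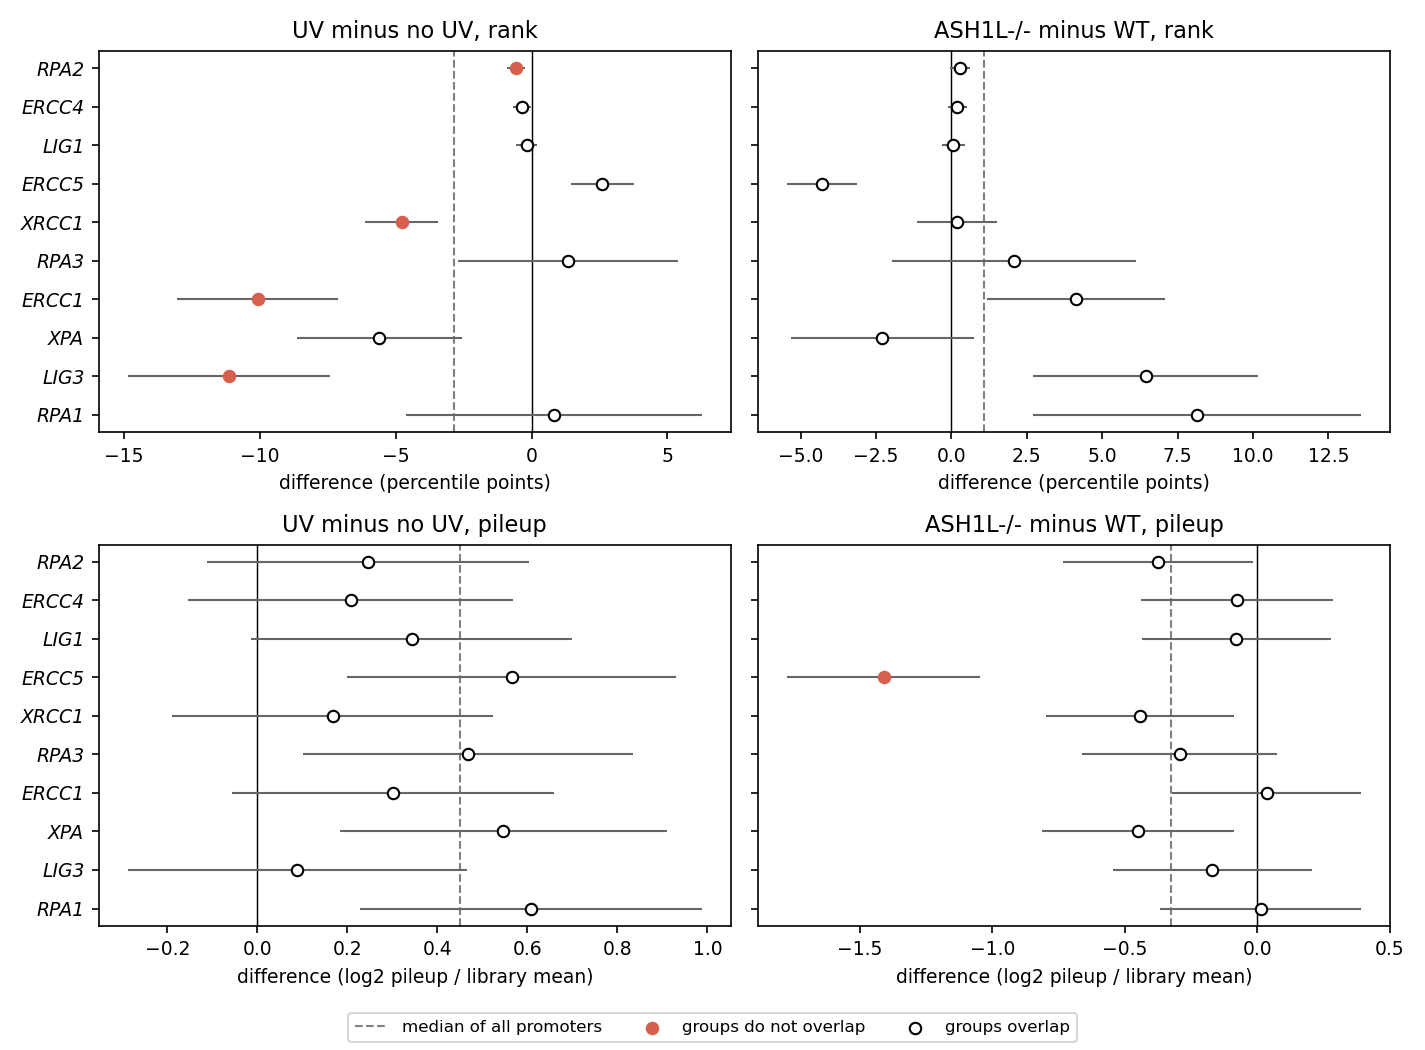
Difference of UV from no UV (left) and of ASH1L-/- from WT (right) for the 10 promoters, in percentile points (top) and in log2 pileup over the library mean (bottom), with bars for 1 SE of limma, n = 4 lists against 4. Filled points mark genes whose groups do not overlap (ERCC1, RPA2, LIG3 and XRCC1 after UV by rank, ERCC5 between genotypes by pileup), and dashed lines mark the median of all 11802 promoters.

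Between the genotypes, 4 ASH1L-/- lists against 4 WT lists, 9 of the 10 promoters showed no separation on either scale. By percentile the differences ran from -4.30 ± 1.15 at ERCC5 to 8.15 ± 5.45 at RPA1. The RPA1 value was 4.195 without unchallenged ASH1L-/- replicate 1 and 12.1 without replicate 2 of that group. By percentile the ASH1L-/- and WT values overlapped at all 10 genes, against 1.78% of promoters higher and 0.729% lower in ASH1L-/- cells. limma called 0 of the 10 and 0% of all promoters, and at an unadjusted p under 0.05 it held ERCC5 alone, against 5.52% of all. The difference between the UV effects of the genotypes was likewise called at 0 of 10 genes and 0% of promoters by limma, and at an unadjusted p under 0.05 it held ERCC5 alone, against 2.54% of all. Without UV-treated WT replicate 1 it was called at 604 promoters, 603 of them lower, and at 0 of the 10. Within a genotype the exact permutation test, 2 lists against 2, cannot go below 0.333.

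ERCC5 was the 1 gene of the 10 with a lower summit pileup in every ASH1L-/- library than in any WT library. Its summit reached 31.4 and 46.6 times the library mean in unchallenged WT cells and 34.8 and 61.0 times in UV-treated WT cells. In ASH1L-/- cells it reached 7.33 and 18.7 times without UV and 24.5 and 18.5 times after it. The highest ASH1L-/- value lay below the lowest WT value, and the difference was -1.41 ± 0.36 on the log2 scale (limma adjusted p = 0.069, exact permutation p = 0.0286, two-sided and unadjusted). ASH1L-/- values lay entirely below WT values at 1 of the 10 genes, against 7.22% of all promoters, and entirely above at 0, against 0.0678%. The caller's local background at ERCC5 was 1.64 to 2.58 times the library mean in WT lists and equal to that mean, the genome-wide floor of the caller, in all 4 ASH1L-/- lists.

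The lower pileup was shared by the promoters near ERCC5, which lies on the distal long arm of chromosome 13. All 10 other promoters within 5 Mb of its start lay proximal to it, and all were below the median of all promoters (-0.33). Their median was -1.26 with a range of -1.47 to -0.57, and 9 of them had ASH1L-/- values entirely below WT values. Some of these genes share a start region (POGLUT2, BIVM and BIVM-ERCC5 have 1 between them), and counted once each the neighbours were 8 distinct regions, 7 of them separated, with a median of -1.16. ERCC5 differed from its neighbours by -0.15. Of 144 promoters of chromosome 13 more than 10 Mb proximal to it 1 was separated in this way, and their median was -0.06. Distal of ERCC5, towards the end of the chromosome, 11 of 18 promoters were separated, with a median of -0.85. Counted once each, the distal regions were 16, 9 of them separated, with a median of -0.89. The neighbours of the other 9 genes had medians between -0.64 at RPA3 and -0.16 at ERCC4, and those 9 genes lay within 0.35 of their neighbours. A difference in DNA copy number and one in accessibility cannot be told apart in these lists.

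**Figure D3:**
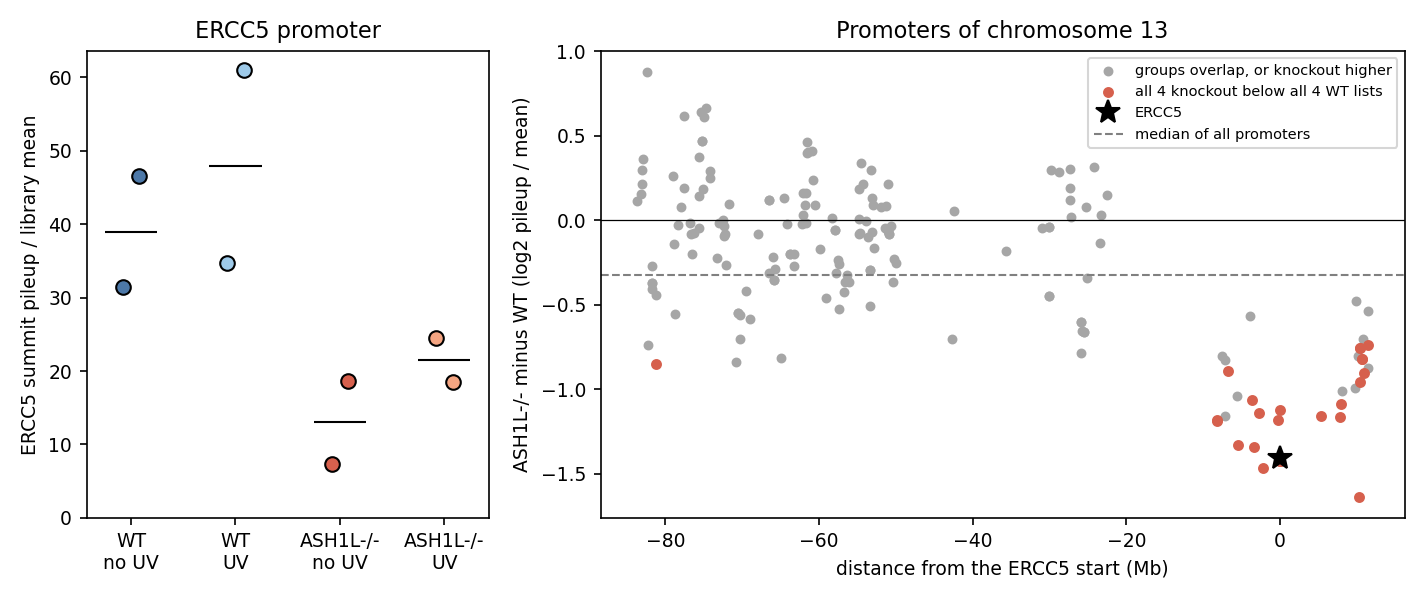
Summit pileup of the ERCC5 promoter over the library mean in each list (left, lines are the means of 2) and the difference of ASH1L-/- from WT in log2 pileup over the library mean for promoters of chromosome 13, by distance from the ERCC5 start in Mb (right). The 4 ASH1L-/- lists lie between 7.33 and 24.5 and the 4 WT lists between 31.4 and 61.0, and ERCC5 sits among neighbours that are lower too.

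Overlapping regions of the 8 lists were merged into 548046 sites over the genome and 143 at the 10 loci. Of 131 sites that were not promoters of their own gene 16 were in all 8 lists (12.2%) and 86 were in 1 list alone (65.6%). Over non-promoter sites at all protein-coding genes the shares were 9% and 63.4%. Those left out sites near the canonical start of any coding gene. The 131 still held sites at starts of other genes, so the shares are not of like sets. The 16 shared sites were not spread evenly. ERCC1 had 7 of them, RPA3 5, LIG1 2, and ERCC4 and XRCC1 1 each, while XPA, ERCC5, RPA1, RPA2 and LIG3 had none. The spans of ERCC1 and RPA3 (71.5 and 82.1 kb) are long in this annotation and cover starts of other genes, and that of RPA1 (70.4 kb) is about as long and held no shared site beside its promoter.

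The strongest shared site away from its gene's canonical start lay at the 3′ end of RPA3 (chr7:7640164-7641266, in the last exon), at the percentiles 99.5, 99.7, 99.3, 97.8, 99.8, 99.5, 99.4 and 99.1. It ranked above the RPA3 promoter in every list. The start of UMAD1 and the starts of 5 of the 7 annotated RPA3 transcripts lie within 1 kb of it, so its signal cannot be assigned to 1 of the genes. XRCC1 had a site in intron 2 (chr19:43562420-43563244), 12.7 kb after the start, at 95.7, 98.4, 96.4, 95.5, 96.9, 96.8, 97.2 and 96.4, with no annotated start within 1 kb. ERCC4 had one 37.6 kb after its start and beyond the end of the gene (chr16:13957274-13958225), at 96.4, 97.0, 96.0, 92.9, 97.5, 95.3, 96.9 and 97.3, again with no annotated start near it. These 3 sites stayed at or above the percentile 92.9 in every list.

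**Figure D4:**
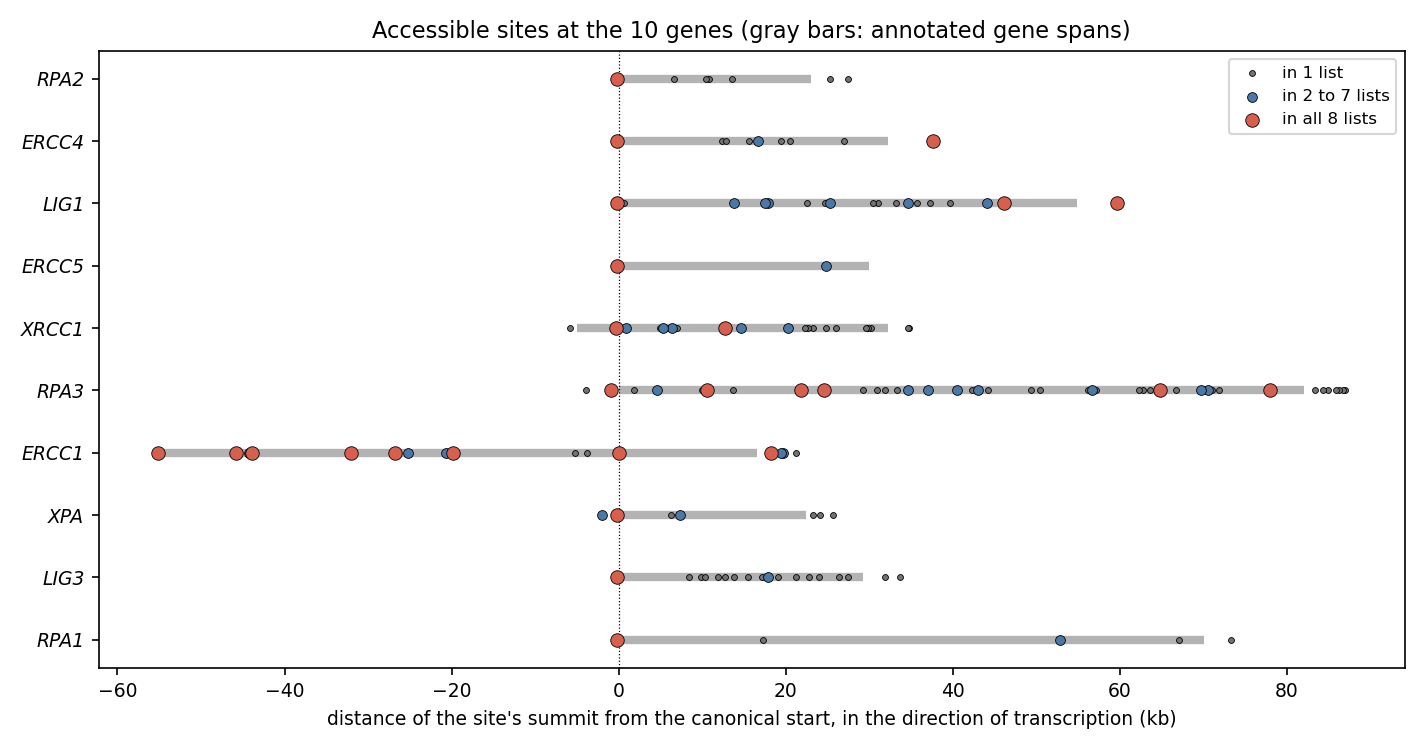
Sites at the 10 genes by the distance of their summit from the canonical start in kb, in the direction of transcription, with gray bars for the annotated spans and points colored and sized by the number of lists that hold a region. Each gene has a site in all 8 lists within 1 kb of its start, and of the 16 away from the starts ERCC1 and RPA3 hold 12.

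LIG1 had a shared site in intron 21 (chr19:48123760-48124404), at 54.5, 91.4, 88.9, 79.9, 93.5, 91.6, 92.5 and 86.8, where unchallenged WT replicate 1 stood apart. Its other one (chr19:48110336-48111100) lay beyond the end of LIG1 within 1 kb of a start of PLA2G4C and ranged from 81.9 to 93.5. In RPA3, a site in intron 2 (chr7:7696325-7697185) ranged from 83.7 to 96.0. A further intron 2 site of RPA3 (chr7:7707684-7708295), outside the 10 of highest rank and named after its values were seen, stood at 63.4, 72.9, 66.3, 93.5, 64.7, 30.3, 69.4 and 83.2. It had the most positive UV difference of the 26 shared sites, 20.3 ± 9.27 points, and did not pass the test (limma adjusted p = 0.200).

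Of the 5 genes without a shared site, LIG3 had one in intron 13 (chr17:34998153-34998776) in 7 lists, at 8.5 to 72.6, and XPA had one 2.0 kb upstream of its start (chr9:97699169-97699593) in 6 lists, at 0.2 to 48.0. The best internal site of XPA (chr9:97689659-97690245, intron 2) was in 5 lists, at 35.9 to 67.0. The best internal site of RPA1 was in 3 lists, that of ERCC5 in 2 and that of RPA2 in 1. The 2 lists with the ERCC5 site (chr13:102870594-102871040, intron 12) were both of WT cells.

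At ERCC1 lay the most negative UV differences in percentile among the 26 shared sites. ERCC1 had 8 of these sites, its promoter included, and at 6 of them all 4 UV values lay below all 4 unchallenged values. Over the 26 sites this was so at 10, the other 4 being the promoters of LIG3, RPA2 and XRCC1 and the site at the 3′ end of RPA3, against 12.3% of all 60323 sites shared by the 8 lists. At 0 of the 26 did all UV values lie above, against 5.99%. The sites of 1 locus share a neighbourhood and are not independent. With ranks taken among the shared sites alone, 6 of the 26 remained, 3 of them at ERCC1.

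This order was one of rank and was not found in the pileup over the library mean. On that scale the UV values lay entirely below at 0 of the 26 sites, against 0.592% of all shared sites, and entirely above at 3, none of them at ERCC1, against 17.8%. The difference was above 0 at 25 of the 26, with a median of 0.49 on the log2 scale against 0.48 over all shared sites, and ran from -0.07 to 0.77 over the 8 ERCC1 sites. At the site with the most negative percentile difference (chr19:45467765-45467951) the pileup was 27.2, 26.4, 24.5, 26.2, 11.1, 28.8, 26.6 and 24.9 times the library mean. UV and unchallenged values overlapped there, and the lowest was that of unchallenged ASH1L-/- replicate 1.

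The 5′ end of the longest ERCC1 transcript, 55.1 kb upstream of the canonical start (chr19:45478011-45479336), stood at 94.8, 91.9, 83.5, 87.3, 94.3, 93.3, 83.7 and 85.6, low in the 4 UV lists of both genotypes. Its difference of -8.54 ± 2.12 points was the closest of the 26 to the threshold (limma adjusted p = 0.0508). An internal site at a further annotated ERCC1 start (chr19:45450267-45450925, named after its values were seen) stood at 80.6, 75.1, 64.7, 55.9, 72.6, 79.9, 43.4 and 55.7, a difference of -22.1 ± 6.43 points (limma adjusted p = 0.0748). In this limma fit over sites the promoters of XRCC1 and ERCC1 had adjusted p of 0.0645 and 0.0652.

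FOSB, a subunit of the AP-1 transcription factor, starts within the annotated span of ERCC1, and 2 shared sites lay within 1 kb of its starts (both named after their values were seen). One (chr19:45467765-45467951) stood at 79.5, 72.3, 62.7, 34.8, 72.3, 63.1, 49.4 and 51.2, and the other (chr19:45469015-45470738) at 81.9, 74.3, 68.8, 56.0, 85.2, 81.0, 66.1 and 68.1. Both had all UV values below all unchallenged values and neither passed the test (limma adjusted p = 0.126 and 0.112). Beyond the 3′ end of ERCC1 the site at the starts of POLR1G and PPP1R13L (chr19:45404902-45406615) stood at 84.6, 84.8, 81.3, 65.5, 90.0, 82.9, 78.2 and 75.8. It showed the same order, with a difference of -10.3 ± 4.69 points (limma adjusted p = 0.197).

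The ERCC1 sites whose UV and unchallenged values overlapped were at chr19:45455542-45456643 and chr19:45442969-45444063. The first stood at 93.2, 93.2, 93.3, 80.7, 96.4, 96.5, 91.5 and 91.6. The second stood at 83.1, 64.5, 88.1, 68.1, 90.7, 93.4, 83.0 and 83.0. UV-treated WT replicate 2 was the lowest list at the first and unchallenged WT replicate 2 at the second.

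**Figure D5:**
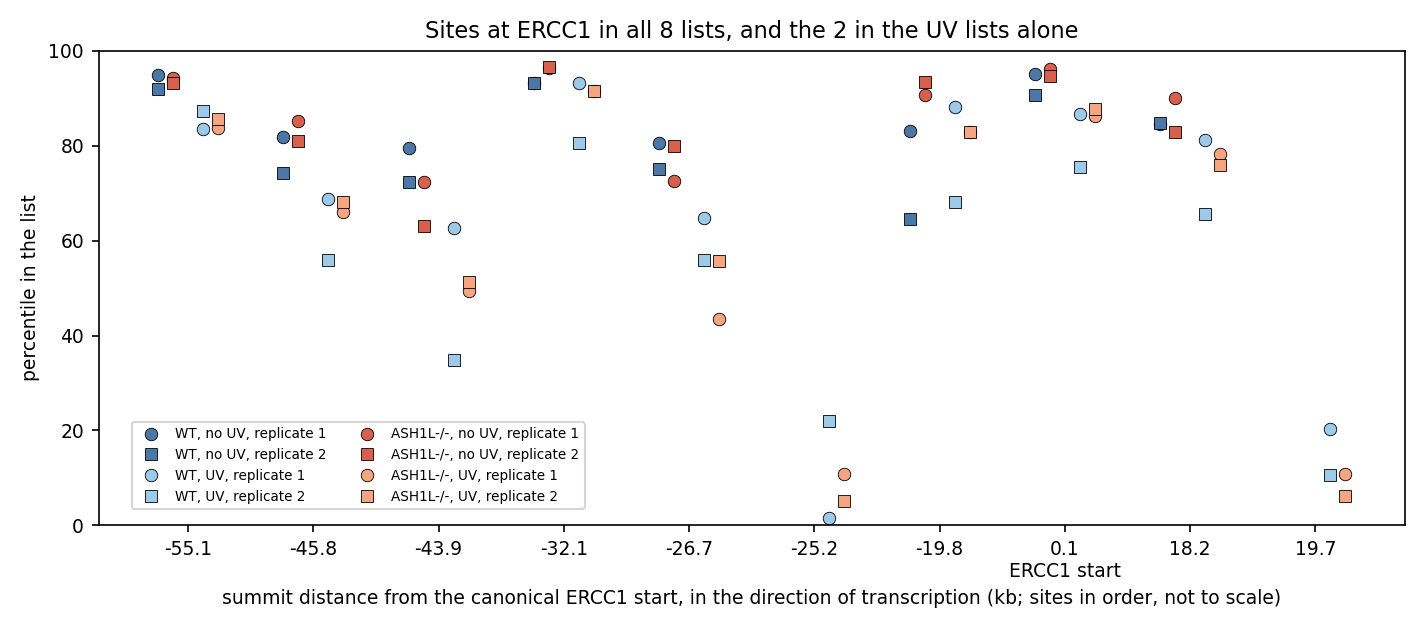
Percentile in each list of the 8 ERCC1 sites found in all 8 lists and of the 2 found in the UV lists alone, ordered by summit distance from the canonical start in kb (negative is upstream), dark for no UV and light for UV, circles for replicate 1 and squares for replicate 2. At 6 of the 8 shared sites the light points lie below all dark points, and the 2 sites of the UV lists alone sit at or below 21.9.

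limma called 0 of the 26 sites after UV, against 4.69% of all shared sites, and held 8 of the 26 at an unadjusted p under 0.05, against 25.9%. Without UV-treated WT replicate 1 it called 3, the promoters of ERCC1 and XRCC1 and the ERCC1 site at chr19:45455542-45456643 (-8.71 points, adjusted p = 0.0213), among 4056 of all shared sites, 3409 of them lower, with the remaining library of that group assumed to vary like the others. Between the genotypes limma called 0 of the 26 and 0% of all shared sites, and 1 of the 26, the ERCC5 promoter, had an unadjusted p under 0.05, against 9.28%. ASH1L-/- and WT values overlapped at all 26 sites, against 2.57% of shared sites entirely higher and 1.51% entirely lower in ASH1L-/- cells.

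Sequence around the summits of the 16 shared sites outside their own gene's promoter was searched for the same motifs, 300 bases each. Beside them stand 25696 shared sites of protein-coding genes, with sites near the canonical start of any coding gene left out. The 16 include sites at starts of UMAD1, FOSB, POLR1G and PPP1R13L, all of which held GGGCGG. The 16 also include the site near a start of PLA2G4C, which held none of the motifs. The 2 sets are thus not alike. The AP-1 motif TGANTCA was in 5 of the 16, 3 of them at ERCC1, against 45.1% of all. CCAAT was in 5, against 30.3%, and GGGCGG in 6, against 14.2%, of which 4 lay at ERCC1. CCGGAAG was in 1, the site at the 3′ end of RPA3, against 2.33%. The CTCF consensus, added after the sites were seen, was in 0 of the 16, against 4.42%. The RPA3 site and the ERCC1 site with 3 AP-1 matches are shown on the plus strand of hg38, with every match in capitals.
RPA3, 3′ end, chr7:7640455-7640754: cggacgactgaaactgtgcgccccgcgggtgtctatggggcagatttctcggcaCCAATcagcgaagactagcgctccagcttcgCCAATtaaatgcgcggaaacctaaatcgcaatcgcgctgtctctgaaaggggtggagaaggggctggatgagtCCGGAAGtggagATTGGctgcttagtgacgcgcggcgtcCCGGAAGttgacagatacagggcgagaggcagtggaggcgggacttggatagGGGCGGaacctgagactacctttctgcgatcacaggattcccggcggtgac
ERCC1, internal, chr19:45455853-45456152: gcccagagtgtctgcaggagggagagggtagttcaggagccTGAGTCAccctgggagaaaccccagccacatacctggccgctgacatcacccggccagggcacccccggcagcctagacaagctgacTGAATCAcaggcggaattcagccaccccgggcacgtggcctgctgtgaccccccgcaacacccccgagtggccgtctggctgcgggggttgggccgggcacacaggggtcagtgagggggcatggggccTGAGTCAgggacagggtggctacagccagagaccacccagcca

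A region in all 4 UV lists and in 0 of the unchallenged lists was found at 2 of 143 sites, against 0.686% of all merged sites, and both were at ERCC1. The first (chr19:45403864-45404301, near a start of PPP1R13L) stood at 20.4, 10.6, 10.8 and 6.2 in the UV lists, and the second (chr19:45449026-45449236, internal) at 1.6, 21.9, 10.8 and 5.1. Their fold enrichments were 2.09 to 3.03, and at a q-value below 0.05 the count was 1. The reverse, a region in all unchallenged lists alone, was found at 0 sites, against 0.0967%.

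Between the genotypes, a region in all 4 WT lists and in 0 of the ASH1L-/- lists was found at 1 site, in intron 21 of LIG1 (chr19:48125956-48126425), against 0.0768% of all merged sites. It stood at 29.5, 50.9, 42.1 and 23.3 in the WT lists, with summit pileups of 10, 16, 16 and 19. A region in the ASH1L-/- lists alone was found at 0 sites, against 0.186%. At a q-value of 0.01 or below 0 sites separated the genotypes.

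The number of regions at the 10 loci was 56, 54, 53, 55, 65, 51, 49 and 53. The most, 65, belonged to the unchallenged ASH1L-/- library with the highest mean pileup and the longest list. RPA3 had 10 to 18 regions and ERCC1 11 to 16, while ERCC5 had 1 or 2. The number did not separate UV from no UV at any of the 10 genes, against 2.38% of protein-coding genes, nor the genotypes, against 2.88%.

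The median of the 10 promoters lay above that of the other sites of the same loci in every list, although single sites such as those at the 3′ end of RPA3 and in intron 2 of XRCC1 ranked above their own promoter, in 8 and 6 of the 8 lists. The median percentile of the 10 promoters was 88.6 to 95.7, and that of the non-promoter sites present in a list was 40.5 to 55.3 over 34 to 48 sites. For the 16 non-promoter sites shared by all lists it was 80.3 to 90.3. The UV difference was below 0 at 18 of the 26 shared sites, with a median of -0.77 points, against 59.4% and -1.39 over all shared sites.

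Other genes of the pathway were taken as a list of 28, and all 28 had a promoter region in all 8 lists. Their median percentile was 93.6, against 92.1 for the 10 genes and 88.9 for all promoters in every list. limma called 0 of the 28 after UV and 0 between the genotypes. After UV the values lay entirely below those of unchallenged cells at 3 of 28, RAD23B and DDB2 of damage recognition and GTF2H1 of TFIIH, against 21.1% of all promoters, and entirely above at 0, against 1.06%. Values lay below for 2 of the 5 recognition genes, 1 of the 9 TFIIH genes, 0 of the 3 transcription-coupled genes and 0 of the 11 genes of resynthesis. Between the genotypes 1 of the 28, the TFIIH helicase gene ERCC2, lay entirely lower in ASH1L-/- cells by percentile, against 0.729% of all promoters, and 1, GTF2H5, did so by pileup, against 7.22%.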

How the data were processed

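The deposited files were 8 narrowPeak lists on hg38, 1 per library. Per the labels and the study's methods the authors trimmed reads (cutadapt 1.9.1), aligned them (Bowtie2 2.4.5), filtered them (SAMtools 1.7, Picard) and called regions in each library with MACS2 2.2.7.1, with no pooling of replicates. The authors' values used were the fold enrichment at the summit, a ratio with no unit, and the −log10 p-value and −log10 q-value. The lists reach down to a p-value of 0.01. The deposited integer score was not used.

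Records with the same interval were kept once and ranked by fold enrichment within their list. The pileup and background at each summit were solved from the fold enrichment and p-value, and whole pileups (within 0.01) came out for 100% of 20000 regions tested per list. The percentile fit of limma 3.58.1 (R 4.3.3) used 4 group means, and p-values were adjusted by Benjamini-Hochberg over all features with a region in all 8 lists. The exact permutation test ran over 70 assignments and cannot go below 0.0286. Groups and replicates came from the labels, which call the replicates biological without naming separate cultures, and p-values measure the spread between these libraries.

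The 10 genes, the lists of other genes, the markers and the motifs were chosen with earlier results of these data known. One of the markers is not reported here. Named sites were each gene's strongest promoter region, the 10 non-promoter sites of highest mean percentile in all 8 lists, every site that split the groups completely and, for a gene with neither, its site in most lists. Read depth was not given, so the mean pileup stands for it, and 2 libraries per group limit the precision. At the 10 loci a site within 1 kb of its own gene's canonical start was a promoter. For the non-promoter sites of all genes, those within 1 kb of any coding gene's canonical start were left out. Merging needed an overlap of 1 base. The alternatives were stricter q-values, other scales, windows, flanks and overlap, a replicate block and leaving out each library. Non-overlap counts under other scales, the neighbours within 5 Mb and the CTCF search were added after seeing the data. Scripts were tested on simulated data.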

Additional observations from a re-analysis of the deposited data

Results flagged for a closer look

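By percentile the LIG1 promoter moved in opposite directions after UV in the 2 genotypes. In WT cells both UV values (99.5 and 98.4) lay below both unchallenged values (99.6 and 99.8), and in ASH1L-/- cells both (99.7 and 99.4) lay above them (99.2 and 99.2). The difference of the UV effects, WT minus ASH1L-/-, was -1.10 ± 0.76 points (SE, n = 2 per group, limma unadjusted p = 0.183, adjusted p = 0.99986), and the 8 values span 98.4 to 99.8. Its median over all promoters was -1.69 points, so the LIG1 value is not set apart from them. By pileup over the library mean the WT values overlapped, 62.4 and 85.6 without UV and 76.3 and 65.8 after it. Those of ASH1L-/- cells were 38.2 and 73.4 without UV and 96.4 and 80.0 after it.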

How the results depend on the processing

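The presence of all 10 promoters in all 8 lists held at stricter q-values, with a 2 kb window and without any 1 library, and was 9 of 10 with a 0.5 kb window. Promoters of the 10 genes called after UV were 0, and they were 2 (ERCC1 and XRCC1) on a normal-score scale, 0 to 3 when single libraries were left out, and 4 by the unadjusted exact permutation test. Over all promoters the UV calls were 0, 1891 on the normal score, 220 with ranks among promoters, 240 by pileup and up to 3951 without UV-treated WT replicate 1, and the genotype calls were 0, up to 17 with other settings and up to 1057 without that library. Among the 26 shared sites 2 were called on the normal score and 2 with ranks among the sites (the ERCC1 promoter and the site at its 5′-most start), and 0 to 3 without single libraries. Over all shared sites the UV calls were 1169 higher and 1659 lower, 2808 and 3592 on the normal score, 4390 and 3462 with ranks among sites, 1221 and 857 at q below 0.05, 1798 and 691 at q of 0.01 or below, and 0 to 4105 in all without single libraries, and the genotype calls were 0, 96 and 109 on the first 2 of these scales and 0 to 204 without single libraries. Sites that separated UV from no UV fell to 1 at q below 0.05, to 1 with at least 50% of the site covered and to 1 with no flank, and numbered 2 to 3 without single libraries. The site that separated the genotypes was 0 at q of 0.01 or below, and 1 to 2 without single libraries. Promoters without overlap after UV were 1 with ranks among promoters and 4 to 5 without single libraries, by pileup 0 to 2 (XPA and RPA1 without UV-treated ASH1L-/- replicate 2), and shared sites lower without overlap were 6 with ranks among sites, 10 to 12 without single libraries and 0 by pileup over the library mean (3 in either direction, all higher). Region numbers separated UV at 0 to 1 genes (RPA3 without unchallenged WT replicate 1). The XPA UV difference turned from below 0 to 0.55 on the log2 pileup scale. Those of ERCC1, ERCC4, LIG1, LIG3, RPA2 and XRCC1 also turned from below 0 to above 0 there. Each of these came out smaller than its SE, such as 0.09 ± 0.38 at LIG3 and 0.30 ± 0.36 at ERCC1. Of 358 values of single promoters 352 were counted as unchanged. That count took a change of sign as a reversal only where both values exceeded their SE, so it includes these turns. The replicate block called 0 of the 10 promoters and 0 of the 26 sites, and 1953 of all shared sites after UV. Same-numbered deviations correlated at -0.09 to 0.11 over promoters and -0.08 to 0.14 over shared sites. With 2 libraries per group these values cannot tell whether same-numbered libraries were prepared together.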
